A study of Mus musculus with 2 samples.

Results

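Expression of 10 genes that make classical transmitters or load them into synaptic vesicles was examined in RNA-seq of mouse dorsal root ganglion (DRG) neurons. They were taken as every row of the deposited tables that carries one of 10 gene symbols, which gave 11 RefSeq transcripts among 35034 and 10 genes among 24411. Each of the 2 libraries was made from the pooled DRG neurons of 10 male C57BL/6 mice (C57BL/6J in the methods), bought at 6 to 8 weeks of age, with no genetic change named. Control mice were injected into the peritoneum with 50% alum, an aluminium salt adjuvant, on days 0 and 14. Immunized mice received the same alum plus the foreign protein antigen KLH (keyhole limpet hemocyanin, 100 µg) on the same days, and thoracic and lumbar DRGs were collected on day 28. The label of the control library reads both naïve and alum alone, and it was treated as the alum-injected pool of the methods. Neurons were enriched by digestion, straining and a BSA cushion, and B lymphocytes were removed with beads.

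With 1 library per group there was no replicate error and no test of immunization, and no difference between the pools has a replicate check. Values are TPM (reads per transcript length, scaled to the same sum in each library), so levels of different genes can be set side by side within a library. The number of reads behind a value is unknown. The 2 values given for a gene are the alum-injected pool first and the alum + KLH-immunized pool second. A gene was called detected above 3 TPM, the limit used by the study.

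A neuron releases only the transmitters that it can both make or take up and load into vesicles. Vesicular glutamate transporters load glutamate, the fast transmitter of sensory neurons. The vesicular inhibitory amino acid transporter loads GABA and glycine, and GABA itself is made by glutamate decarboxylase. Catecholamines are built in steps by tyrosine hydroxylase, aromatic L-amino acid decarboxylase and dopamine beta-hydroxylase, and a vesicular monoamine transporter loads them. In DRG, the vesicular glutamate transporters VGLUT1, VGLUT2 and VGLUT3 are known from overlapping neuron classes, VGLUT1 mainly from large myelinated neurons, and VGLUT3 and tyrosine hydroxylase from C-fibre low-threshold mechanoreceptors.

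The genes fell into 3 levels that were the same in both pools. The glutamate transporter gene Slc17a6 stood far above the rest, 4 genes (Slc17a7, Slc17a8, Th and Slc18a2) lay between 14.1 and 26.0 TPM, and the other 5 were below 3 TPM in both pools. Of these 5, Slc32a1 and Dbh were listed at 0 in both pools. Among all 24411 genes, 45.5% were above 3 TPM in both pools and 19.7% were listed at 0 in both. None of 39 proteasome subunit genes and 1 of 100 ribosomal protein genes (Rpl10l) was listed at 0.

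**Figure D1:**
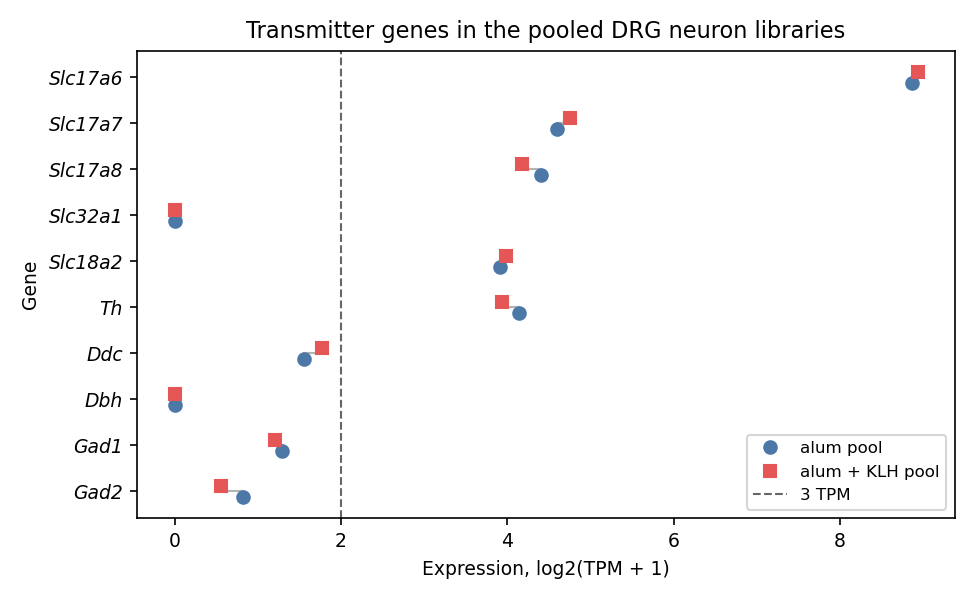
Expression of the 10 transmitter genes as log2(TPM + 1) on the horizontal axis, with circles for the alum-injected pool, squares for the alum + KLH-immunized pool and a dashed line at 3 TPM. Slc17a6 lies far to the right at 465.0 and 488.2 TPM, 4 genes lie between 14.1 and 26.0 TPM, and Slc32a1 and Dbh sit at 0 in both pools, which have 1 library each.

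Slc17a6 encodes VGLUT2 and was read on 1 transcript, NM_080853, of 12 exons on the plus strand of chromosome 7 (51622006 to 51671119, GRCm38). Its values were 465.0 and 488.2 TPM, and 1.54% and 1.48% of all genes were higher. Slc17a7, which encodes VGLUT1 (NM_182993, chromosome 7, 45163949 to 45176142, plus strand), was at 23.2 and 26.0 TPM. Slc17a8, which encodes VGLUT3 (NM_182959, chromosome 10, 89574020 to 89621253, minus strand), was at 20.1 and 17.0 TPM. Slc17a6 thus made up 91.5% and 91.9% of the summed TPM of the 3 transporters. Slc17a7 held 4.57% and 4.89% of this sum and Slc17a8 held 3.96% and 3.21%. The TPM of Slc17a6 was 20.0 and 18.8 times that of Slc17a7 and 23.1 and 28.6 times that of Slc17a8. The order of the 3 genes was the same in both pools. Slc17a7 was 1.15 and 1.53 times as high as Slc17a8, and with 1 library per group the order of these genes has no replicate check.

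Genes for glutamate synthesis and uptake were detected as well. Of 13 genes on this list, 12 were above 3 TPM in both pools. The list is not limited to supply by neurons. It holds Glul, also a satellite glia marker, whose enzyme turns glutamate back into glutamine. Slc38a2, which encodes a glutamine carrier, was at 307.4 and 321.8 TPM. None of the 12 genes was 1.5-fold apart between the pools, and their median log2 ratio was 0.016. Among the 6 other members of the SLC17 family, Slc17a5, which encodes the lysosomal sialic acid carrier sialin, was at 42.0 and 42.3 TPM, and 5 were below 3 TPM in both pools. Slc17a2 was next at 1.30 and 1.15 TPM. Slc17a9, the vesicular nucleotide transporter gene, was at 0.029 TPM and at 0.

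In the catecholamine pathway the genes of successive steps were at unequal levels. Th encodes tyrosine hydroxylase, the rate-limiting enzyme of catecholamine synthesis (NM_009377, chromosome 7, 142892752 to 142900014, 13 exons on the minus strand), and had 16.6 and 14.4 TPM. Ddc, which encodes the decarboxylase that turns L-DOPA into dopamine, was at 1.93 and 2.43 TPM. The TPM of Th was 8.61 and 5.91 times that of Ddc, with Th above and Ddc below the detection limit in both pools. Dbh, which encodes the enzyme that turns dopamine into noradrenaline (NM_138942, chromosome 2, 27165233 to 27183200, 12 exons on the plus strand), was listed at 0 in both pools. Pnmt, which encodes the next enzyme and forms adrenaline, was also listed at 0 in both.

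Slc18a2, which encodes the vesicular monoamine transporter VMAT2 (NM_172523, chromosome 19, 59260896 to 59296012, plus strand) and has 16 exons there, had values of 14.1 and 14.8 TPM. Its level was next to that of Th, below it in the alum-injected pool and above it in the alum + KLH-immunized pool, so the order of these 2 genes was not fixed. The other vesicular monoamine transporter gene, Slc18a1 (VMAT1), was at 5.72 and 6.25 TPM, so that Slc18a2 was 2.47 and 2.37 times as high. Tph2, which encodes the tryptophan hydroxylase of neurons, was at 3.38 and 3.46 TPM, and Tph1, which encodes the other form, at 2.08 and 1.92 TPM.

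Of 13 genes for handling catecholamines, serotonin and histamine, 6 were above 3 TPM in both pools. Enzymes that break amines down led the list, Maoa at 113.5 and 113.5 TPM and Hnmt at 55.5 and 60.1 TPM. The plasma membrane carriers for noradrenaline, dopamine and serotonin were low, with Slc6a2 at 0.27 and 0.24 TPM, Slc6a3 listed at 0 in both pools and Slc6a4 at 0.093 and 0.119 TPM. Tetrahydrobiopterin is the cofactor of tyrosine and tryptophan hydroxylases. Of 8 genes for making, recycling or regulating it, 7 were above 3 TPM in both pools, led by Qdpr at 202.3 and 204.6 TPM and Pts at 125.2 and 124.9 TPM. Gch1, which encodes the first enzyme of its synthesis, was at 7.0 and 8.74 TPM. No gene of either list above 3 TPM was 1.5-fold apart between the pools, and the median log2 ratios were 0.013 and -0.0034.

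Ddc was the only 1 of the 10 genes with 2 transcripts in the files. Both lie on the minus strand of chromosome 11 with 15 exons each but begin at different first exons. NM_016672 begins at the downstream first exon (11890338 to 11890408) and carried the whole value of the gene, 1.93 and 2.43 TPM. NM_001190448 begins at the upstream first exon (11898012 to 11898144) and was listed at 0 in both pools. The 2 transcripts share 96.3% of the 31-mers of NM_016672 and 93.2% of those of NM_001190448, so few reads can tell them apart.

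The sequences before the starts of Th, Slc18a2 and Ddc are shown because genes of successive steps differed in level and because the 2 Ddc transcripts have separate starts. They are read 5′ to 3′ from RefSeq windows on GRCm38.p6, and give the 100 bases before each RefSeq start, with 4 bases after it for Th and Slc18a2. For Th and Slc18a2 the RefSeq start differs from the GENCODE one given above. Capitals mark 3 motifs searched on both strands: the cyclic AMP response element TGACGTCA, the TATA box TATAAA and the GC box GGGCGG.
Th, chr7:142899992-142900095, minus strand: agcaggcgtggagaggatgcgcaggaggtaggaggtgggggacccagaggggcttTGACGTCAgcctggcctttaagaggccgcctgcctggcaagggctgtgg
Slc18a2, chr19:59260778-59260881, plus strand: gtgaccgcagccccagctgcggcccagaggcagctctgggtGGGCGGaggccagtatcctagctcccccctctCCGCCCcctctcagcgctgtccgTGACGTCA
Ddc NM_016672, chr11:11890409-11890508, minus strand: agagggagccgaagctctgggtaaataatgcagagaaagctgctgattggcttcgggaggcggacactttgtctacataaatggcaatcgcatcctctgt
Ddc NM_001190448, chr11:11898145-11898244, minus strand: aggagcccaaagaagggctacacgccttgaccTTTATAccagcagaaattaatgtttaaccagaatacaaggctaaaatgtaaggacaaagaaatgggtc

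The element TGACGTCA begins 45 bases before the RefSeq start of Th and spans the start of Slc18a2, beginning 4 bases before it. Among the 13 windows of the 10 genes (250 bases before to 50 after each start) these were the 2 that held it, and 1.79% of all 32851 windows did. The TATA box letters were in 2 of the 13 windows and in 13.6% of all windows, and the GC box in 5 of the 13 and in 35.7% of all. Both TATA matches were on the strand opposite to the gene. They begin 68 bases before the start of NM_001190448 of Ddc and 141 bases before that of Gad1. The stretch before the Ddc transcript that carried the gene's value held none of the 3 motifs. The 3 motifs were chosen after the sequences were seen, so the shares of all windows are no test of enrichment. The matches describe letters in the windows, and binding of any factor was not measured.

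The genes for glutamate decarboxylase and for loading GABA into vesicles were low or listed at 0. Gad1, which encodes the glutamate decarboxylase GAD67 (NM_008077, chromosome 2, 70562042 to 70602014, 17 exons on the plus strand), had 1.45 and 1.31 TPM. Gad2, which encodes GAD65 (NM_008078, chromosome 2, 22622205 to 22693874, 16 exons on the plus strand), had 0.77 and 0.47 TPM. Slc32a1, which encodes the vesicular inhibitory amino acid transporter (NM_009508, chromosome 2, 158610767 to 158615748, 2 exons on the plus strand), was listed at 0 in both pools. The TPM of Slc17a6 was 321.3 and 373.2 times that of Gad1. All 3 genes were below 3 TPM in both pools. Of all genes, 53.4% and 53.7% were higher than Gad1, and 58.4% and 61.5% were higher than Gad2.

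Of 13 further genes for handling GABA and glycine, 4 were above 3 TPM in both pools. These 4 encode enzymes that degrade GABA or oxidize amines and aldehydes: Aldh9a1 at 44.8 and 41.5 TPM, Abat, the GABA transaminase gene, at 38.6 and 37.0 TPM, Aldh5a1 at 16.0 and 15.0 TPM, and Maob at 5.67 and 5.09 TPM. Each was lower in the alum + KLH-immunized pool, by less than 1.5-fold. Their median log2 ratio was -0.097, beside -0.020 for all genes above 3 TPM in at least 1 pool. The plasma membrane GABA carrier gene Slc6a11 was below 3 TPM, at 1.77 and 1.90 TPM. The glycine carrier Slc6a5, found in glycinergic neurons, was listed at 0 and at 0.022 TPM.

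**Figure D2:**
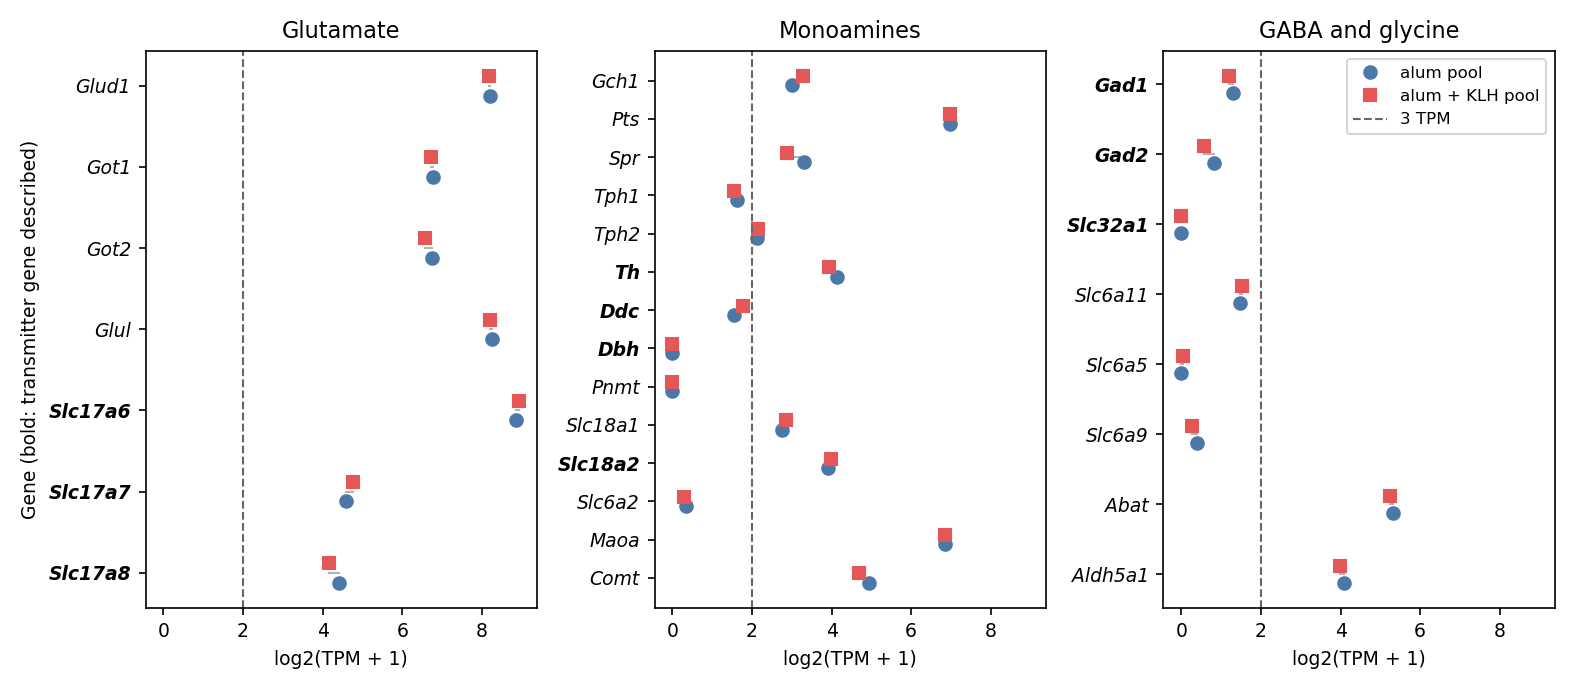
Genes of the glutamate, monoamine and GABA or glycine pathways, with log2(TPM + 1) on the horizontal axis, circles for the alum-injected pool, squares for the alum + KLH-immunized pool and a dashed line at 3 TPM. Slc17a6 lies at 465.0 and 488.2 TPM in the glutamate panel, Th and Slc18a2 lie to the right of the line while Ddc, Dbh and Pnmt lie to its left, and Gad1, Gad2 and Slc32a1 are all to its left.

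The values of some genes carry limits from sequence that they share with other loci. GENCODE places antisense genes over exons of Slc32a1, Slc18a2, Gad1 and Ddc, and the strand setting of the quantification is not given in the sources used here. Of the 31-mers of Slc32a1, 24.2% lie in its antisense gene Gm14205, and 1.89% of those of Slc18a2 lie in Gm29261. Gad1os, the antisense gene of Gad1, was at 0.080 and 0.139 TPM, and 1700042O10Rik, which is antisense to Ddc, was listed at 0 in both pools. Gad1 shares 8.69% of its 31-mers with the pseudogene Gad1-ps. Gm14205, Gm29261 and Gad1-ps had no row among the deposited transcripts, so no value can be given for them. Slc17a8 shares 3.41% of its 31-mers with 1051 other genes and Gad2 2.32% with 4535 other genes. The transcripts of Slc17a6, Slc17a7, Th, Ddc and Dbh share no 31-mer with other annotated genes, so the 3 glutamate transporter genes could be told apart.

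Between the pools, measured on TPM + 1, none of the 10 genes was 1.5-fold higher and none was 1.5-fold lower in the alum + KLH-immunized pool. With no filter, 0.70% of all 24411 genes were higher and 1.02% were lower by 1.5-fold or more. Slc32a1 and Dbh, listed at 0 in both pools, could not be counted as apart. Of 11648 gene totals above 3 TPM in at least 1 pool, 1.00% were higher by 1.5-fold or more and 1.55% were lower by as much on the same scale. The 5 transmitter genes in that set had a median log2 ratio of 0.065, beside -0.020 for the whole set. These log2 ratios set TPM + 1 after alum + KLH over TPM + 1 after alum alone, which understates the change of low genes. The spread beside each ratio below is the SD of the ratio over the 500 genes closest in abundance, and describes how far genes of that level differed between the same libraries.

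The log2 ratios of Slc17a6 and Slc18a2 were 0.07 and 0.065, beside spreads of 0.16 and 0.23, and both turned to -0.014 when TPM was taken relative to Hprt. For Slc17a7 the ratio was 0.16, beside a spread of 0.19. Th had a ratio of -0.20 beside a spread of 0.25. The ratio of Slc17a8, -0.23, exceeded its spread of 0.19. Of the genes below 3 TPM, Ddc had a ratio of 0.23 beside a spread of 0.51 and Gad1 one of -0.084 beside 0.74, and for Gad2 the ratio of -0.26 was just larger in size than the spread of 0.26 and became -0.60 with a pseudocount of 0.1 TPM. Of the 8 genes with a value above 0, 4 were higher and 4 were lower in the alum + KLH-immunized pool, and 6 had a ratio smaller than the spread.

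**Figure D3:**
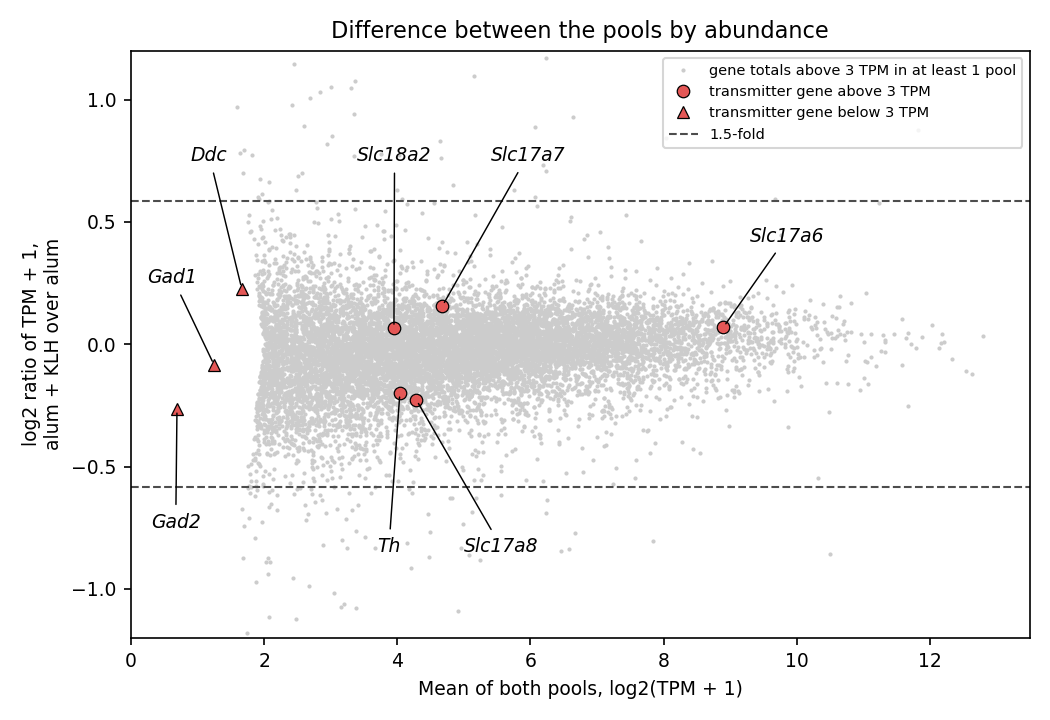
The log2 ratio of TPM + 1 between the pools, alum + KLH over alum (vertical axis), against the mean log2(TPM + 1) of both pools (horizontal axis) for 11648 gene totals (grey), with the transmitter genes in red and dashed lines at 1.5-fold. All 8 transmitter genes with a value above 0 lie between the lines, with ratios from -0.26 to 0.23, and 175 gene totals beyond 1.2 on the vertical axis are not drawn.

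The labelled tissue was checked against marker genes. All 8 sensory neuron markers were above 3 TPM in both pools, from Isl1 at 145.2 and 152.7 TPM to Calca, which encodes the peptide CGRP, at 6177 and 5729 TPM, with Snap25 next at 4057 and 4279 TPM. In a pooled bulk library, fewer cells of a type cannot be told apart from less RNA per cell. Th and Slc17a8 are both markers of C-fibre low-threshold mechanoreceptors, and the 6 genes of that list were above 3 TPM in both pools, summing to 463.7 and 426.5 TPM. The other 4 were Piezo2, a mechanically gated channel gene, at 203.8 and 185.9 TPM, Fam19a4 at 106.8 and 104.5 TPM, Gfra2 at 99.7 and 88.3 TPM and Zfp521 at 16.5 and 16.4 TPM. Each of the 6, which include Th and Slc17a8 themselves, was lower in the alum + KLH-immunized pool, with none 1.5-fold apart. Their median log2 ratio was -0.15, beside -0.020 for all gene totals above 3 TPM in at least 1 pool. The ratios of Fam19a4 and Zfp521 were -0.032 and -0.010, so Zfp521 was not below the median of all gene totals. The paper estimated cell types in its preparations by deconvolution, with a TH neuron class in the reference. It named peptidergic, non-peptidergic and neurofilament neurons and a non-neuronal part, and did not list TH neurons. The part of cell number in the values of Th and Slc17a8 was not tested.

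Slc17a7 is known from large-fibre neurons, and of 5 large-fibre markers 4 were above 3 TPM in both pools. Spp1 was at 196.1 and 352.4 TPM and was the only 1 of them over 1.5-fold apart, while Nefh, the neurofilament heavy chain gene, was at 1021 and 973.5 TPM. The calcium-binding protein gene Pvalb was at 80.4 and 114.3 TPM, below 1.5-fold, and Ntrk3 and Runx3 were at 29.1 and 28.0 TPM and at 2.83 and 2.48 TPM. The list summed to 1329 and 1471 TPM, with Spp1 and Pvalb higher and the other 3 genes lower in the alum + KLH-immunized pool. Slc17a7 had 23.2 and 26.0 TPM beside these values, and their part in it was not tested.

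Th, Dbh and Slc18a2 are also markers of sympathetic neurons, which can lie near DRGs. Of the 8 other sympathetic markers, 1 was above 3 TPM in both pools, the nicotinic receptor gene Chrna3 at 32.1 and 34.2 TPM. The 8 summed to 35.6 and 36.5 TPM. Markers that define these cells were at or near 0, with Hand2 at 0 and 0.025 TPM and Slc6a2 at 0.27 and 0.24 TPM, and Hand1 was listed at 0 in both. The chromaffin cell list held 3 of 4 genes above 3 TPM and summed to 129.8 and 116.3 TPM, led by the granin genes Chgb at 82.5 and 75.2 TPM and Chga at 41.5 and 34.9 TPM. Its defining markers were Pnmt, listed at 0, and Slc18a1, at 5.72 and 6.25 TPM.

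Slc18a2 is expressed by mast cells as well. Of the 7 other mast cell markers 1 was above 3 TPM in both pools, the receptor gene Kit at 58.1 and 56.2 TPM, and the 7 summed to 64.0 and 60.6 TPM. The defining markers were low, with Cpa3 at 2.07 and 1.86 TPM and Cma1 at 0.19 TPM and 0, and Tpsb2 was listed at 0 in both pools. Gad1, Gad2 and Slc32a1 mark inhibitory neurons of the spinal cord. The 5 other markers of these cells were all below 3 TPM in both pools and summed to 1.27 and 1.41 TPM. Their defining markers Pax2 and Slc6a5 were at 0.27 and 0.34 TPM and at 0 and 0.022 TPM, and Lbx1 was listed at 0 in both.

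**Figure D4:**
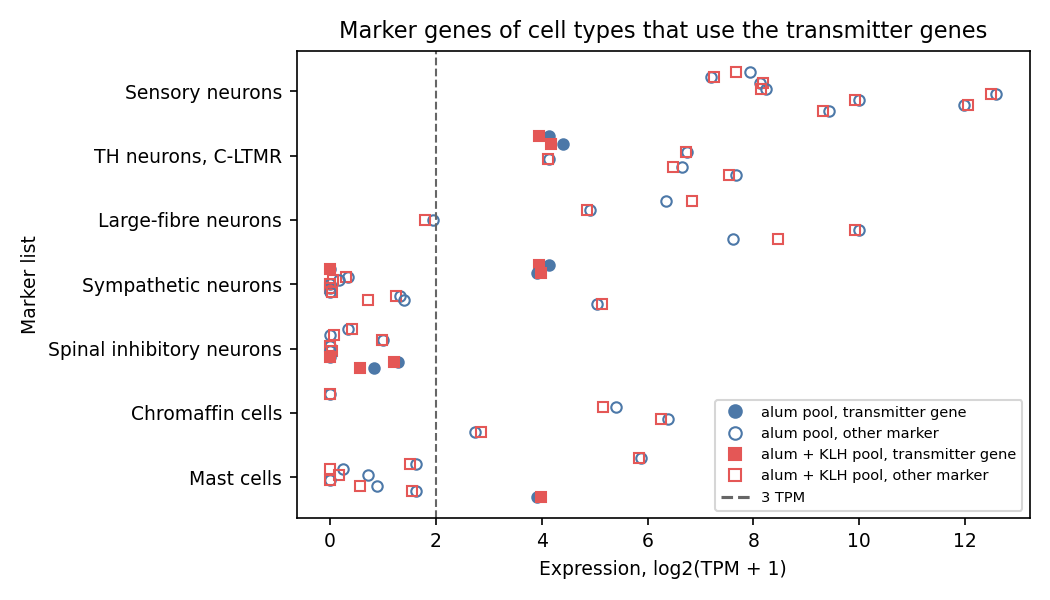
Expression of marker genes of 7 cell types, as log2(TPM + 1) on the horizontal axis, in the alum-injected pool (circles) and the alum + KLH-immunized pool (squares), with the transmitter genes filled, other markers open and a dashed line at 3 TPM. The sensory neuron and C-fibre mechanoreceptor (C-LTMR) markers all lie to the right of the line, while 7 of the 8 other sympathetic markers and all 5 other spinal inhibitory markers lie to its left in both pools.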

How the data were processed

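Stranded mRNA libraries were sequenced in paired-end mode, trimmed with cutadapt and quantified with kallisto on the annotated mm10 transcriptome. The authors deposited TPM per RefSeq transcript. Tool versions are not given in the sources used here. The study's methods state a minimum read depth per library, but no read counts were used. The reads behind each value are therefore unknown, and no interval was computed. TPM was summed per gene, and ratios used log2(TPM + 1). A count of genes at least 1.5-fold apart over the whole table replaced a test, and calculations were tested on simulated data. The 10 genes, the 6 pathway and 13 marker lists and the 1.5-fold size were chosen with earlier results of these data known. All 10 genes are named, and from each list the 2 highest genes, those listed at 0 in both pools, those 1.5-fold apart and the defining markers. Other list genes, and the motifs, were chosen after their values or sequences were seen. Tafa4 was counted as Fam19a4. Some list genes are counted but not reported here by name. Positions came from GENCODE M21 (GRCm38, the assembly of mm10) through RefSeq identifiers, with all 11 transcripts matched. Python 3.11.15, numpy 2.4.6, pandas 2.3.3 and matplotlib 3.10.9 were used. Alternatives were pseudocounts of 0.1 and 0.5 TPM, thresholds of 1 and 10 TPM, no filter, rescaling so that the median ratio (0.987) became 1, division by Hprt and the highest transcript of each gene.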

Additional observations from a re-analysis of the deposited data

How the results depend on the processing

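None of the transmitter genes that passed the filter on low values was 1.5-fold apart under any of the 8 alternatives tried for this count, and with no filter, at a pseudocount of 1 TPM, none of the 10 was. Of 50 recomputed ratios of these genes, 1 moved by more than its spread, that of Gad2, which is below the 3 TPM filter: with a pseudocount of 0.1 TPM it was -0.60, past 1.5-fold. Relative to Hprt, which was 1.06 times as high in the alum + KLH-immunized pool, 2 ratios changed sign, those of Slc17a6 and Slc18a2 (both -0.014). Shares among the glutamate transporters did not move, since each gene has 1 transcript. Over all genes, the number at least 1.5-fold higher was 117 and fell to 43 with a filter of 10 TPM, and the number at least 1.5-fold lower was 181 and became 82 with that filter, which keeps fewer genes, and 274 on the highest transcript of each gene. No paired analysis was possible because each group has 1 library, and no library could be left out. The unknown number of reads behind each value limits every statement on genes below 3 TPM.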

Other observations

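Genes for handling acetylcholine, another classical transmitter, were at unequal levels. The choline carrier gene Slc5a7 had 6.99 TPM after alum and 7.02 TPM after alum + KLH, and Chat, which encodes the enzyme that makes acetylcholine, was at 0.52 and 0.43 TPM. Slc18a3, which encodes the vesicular acetylcholine transporter and lies within the first intron of Chat, was listed at 0 in both pools. The genes for the enzymes that break acetylcholine down were higher, with Bche at 35.0 and 37.5 TPM and Ache at 9.19 and 8.74 TPM. In total, 3 of 5 genes were above 3 TPM in both pools, and none was 1.5-fold apart. Slc5a7 was also the only 1 of 4 spinal motor neuron markers above 3 TPM, and Mnx1 was listed at 0.

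Among other cell types, all 4 satellite glia markers were above 3 TPM in both pools, led by Fabp7 at 952.6 and 888.1 TPM and the glutamine synthetase gene Glul at 302.3 and 292.7 TPM, which turns glutamate back into glutamine. Of 5 Schwann cell markers 4 passed, led by Pmp22 (1062 and 1021 TPM) and S100b (683.5 and 711.5 TPM). No oligodendrocyte marker of 5 (summed 0.46 and 0.35 TPM, Mog at 0.19 and 0.099 TPM and Mobp listed at 0), no platelet marker of 4 (summed 1.00 and 1.01 TPM, led by Pf4 and Ppbp) and no macrophage marker of 4 (summed 2.75 and 2.52 TPM, led by Cd68 and Aif1) was above 3 TPM in either pool.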
